A study of Homo sapiens with 6 samples.

Results

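Integrins and the genes of focal adhesions, the plaques through which cells hold the extracellular matrix, were examined in RNA sequencing of HEK293A, an adherent line derived from human embryonic kidney. The set was a fixed list of 38 symbols, made of 14 integrin subunits and 24 adhesion plaque and signalling genes. Every symbol matched 1 of the 60676 Ensembl gene IDs in the count tables, and 37 of the 38 were abundant enough to test, among 15577 tested genes in all. Cells received vehicle (DMSO, 3 libraries) or VT01454 at 20 nM (3 libraries), in both cases for 2 h. Both groups are the same line with no stated genetic change, the compound is known here by its code name, and the series title places it in work on phosphatidylinositol transfer proteins, phosphoinositides and the Hippo pathway. Separate cultures are not stated for the libraries of either group, and the tests therefore weigh differences against a spread between libraries that may be technical.

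An integrin is a pair of 1 alpha and 1 beta transmembrane subunit, and the pair decides which matrix protein is bound. Talins and kindlins bind the beta tail inside the cell and switch the receptor on; vinculin, zyxin and related proteins tie it to actin, and the kinases FAK and SRC with their adaptors carry the signal onward. Adhesion and actin tension are known inputs to YAP and TAZ signalling. The comparison asks whether the transcripts of this machinery differ after the short treatment.

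Total counts ran from 19126039 to 28880374 per library, with means of 22322639 for vehicle and 26197943 for compound (exact two-sided permutation p = 0.3, smallest possible 0.1). Levels below are CPM, counts scaled to a common library total (1e+06) with TMM factors. A single count equalled 0.0351 to 0.0522 CPM, and the limit that a count of 0 leaves (3 counts) equalled 0.105 to 0.157 CPM; such limits cover counting error only. Vehicle library 2 stood apart: by chi-square over genes it differed from the other 5 libraries by 9.12 to 20.1 per degree of freedom, against 7.61 to 8.58 for the other pairs with a vehicle library and 2.03 to 2.79 between compound libraries. Of 9 features reported for HEK293 cells, 8 exceeded 3 counts in some library, with KRT8 at 895 to 1032 CPM and NEFL at 647 to 710 CPM, while the renal factor PAX2 reached at most 0.708 CPM and LHX1 at most 3 counts. Of 5 leukocyte markers only ITGB2 exceeded 3 counts (0.332 to 0.802 CPM), and PTPRC, CD68 and CD3E were at 0 in every library. The summed squamous and endothelial lists reached at most 0.531 and 2.59 CPM. The fibroblast list summed to 27.7 to 40.8 CPM with vehicle and 25.6 to 36.4 with the compound; 4 of its 5 markers exceeded 3 counts, led by COL1A1 at 15.3 to 26.8 CPM, and DCN had at most 2 counts.

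Of the 14 integrin subunits on the list, ITGB1 was by far the most abundant per unit length, and 9 of the 24 textbook integrin pairs had both subunits at 1 or more CPM per kilobase of exon in every library. These were the collagen receptors alpha1-beta1 and alpha2-beta1, the laminin receptors alpha3-beta1 and alpha6-beta1, the fibronectin receptor alpha5-beta1, the fibronectin and VCAM1 receptor alpha4-beta1, and the RGD-binding pairs alphaV-beta1, alphaV-beta5 and alphaV-beta8. At a floor of 5 CPM per kilobase 3 pairs were left, alpha6-beta1, alphaV-beta1 and alphaV-beta5. A floor of 0.5, or dividing by the longest coding transcript in place of all exons, gave 10, the laminin receptor alpha7-beta1 being added.

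On the scale of CPM per kilobase of exon, the beta1 gene ITGB1 stood at 91.3, 89.3 and 98.5 in the vehicle libraries and at 101, 97.9 and 98.6 in the compound libraries. ITGB5, the vitronectin receptor subunit beta5, stood at 9.07, 9.20 and 8.90 with vehicle and at 9.78, 9.07 and 8.78 with the compound. ITGB8, whose product with alphaV activates latent TGF-beta, stood at 1.10, 1.18 and 1.43 with vehicle and at 1.09, 1.16 and 1.35 with the compound. The groups overlapped for all 3 beta genes, and the 3 did not overlap each other. ITGB1 made up 89.1% to 90.4% of the summed level of all listed beta genes in each library.

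Among alpha genes ITGAV led. In CPM per kilobase it stood at 17.8, 17.4 and 20.7 with vehicle and at 20.6, 21.6 and 21.9 with the compound, so vehicle library 3 reached into the compound range. ITGA6, the alpha6 laminin receptor subunit, followed at 6.61, 6.41 and 7.23 with vehicle and 7.37, 7.58 and 7.46 with the compound, with every compound library above every vehicle library. ITGA5, for the alpha5 fibronectin receptor subunit, stood at 5.49, 4.95 and 5.23, then 5.30, 5.09 and 4.87. ITGA4 and ITGA5 overlapped in level, with ITGA4 at 4.35, 4.02 and 5.21 in vehicle and 4.87, 4.90 and 4.91 in compound libraries. ITGA2 (1.87 to 2.70), ITGA3 (1.40 to 1.98) and ITGA1 (1.10 to 1.56) were next in CPM per kilobase, each overlapping its neighbour. ITGA7 straddled the floor at 0.852 to 1.27.

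Summed per library, the 12 listed alpha partners of beta1 came to 38.6 to 46.6 CPM per kilobase, so that ITGB1 alone was 2.10 to 2.31 times the sum of its partners. ITGAV supplied 43.7% to 47.8% of that alpha sum. These are transcript levels per length, and they do not give the number of receptors.

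**Figure D1:**
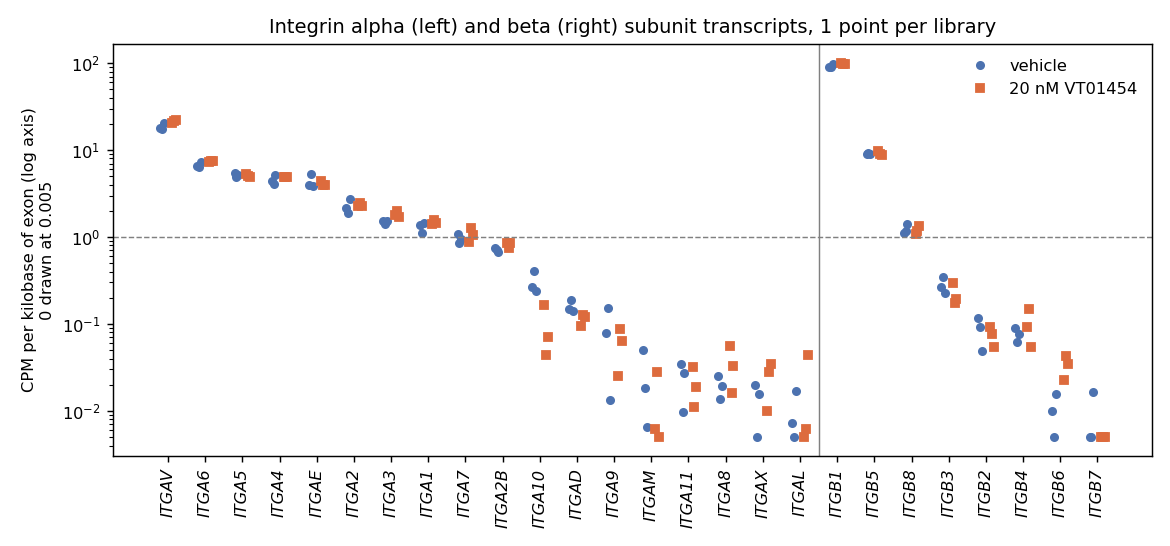
Level of each integrin subunit gene in CPM per kilobase of exon (log axis, values of 0 drawn at 0.005), with 1 point per library for vehicle (circles) and VT01454 (squares). ITGB1 lies between 89.3 and 101, ITGAV between 17.4 and 21.9, and the dashed line marks the floor of 1 used to state expressed pairs.

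The other subunits on the list were scarce. ITGA9, a partner of beta1 that binds tenascin, had 0.0134 to 0.151 CPM per kilobase, ITGB4, the hemidesmosome subunit that pairs with alpha6, 0.0544 to 0.149, and ITGB3, the beta subunit of a vitronectin receptor, 0.174 to 0.344. Of the exonic bases of ITGB3, 51.6% also lie in exons of another annotated gene, which had 0 counts in every library; whether the overlap lowered the value for ITGB3 was not tested. ITGAE, listed apart, was at 3.91 to 5.30, while its partner ITGB7 reached at most 0.0165; 42.1% of the exonic bases of ITGB7 are shared with another gene.

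None of the 14 integrin subunits passed at an adjusted p below 0.05 in edgeR or limma-voom, nor any of the 11 to which DESeq2 gave an adjusted p (it gave none to ITGA9, ITGB3 and ITGB4). In edgeR 2 of the 14, ITGA3 and ITGAV, had an unadjusted p below 0.05, as did 14.4% of all tested genes. Of all tested genes 1.89% passed in edgeR, and 14 genes are too few to be set apart from these shares. ITGA3, the alpha3 laminin receptor subunit, had 15.0, 13.7 and 14.8 CPM with vehicle and 17.7, 19.4 and 16.7 CPM with the compound. Its groups did not overlap, and the log2 fold change was 0.30 ± 0.090 (SE; edgeR adjusted p = 0.133). ITGAV had 146, 143 and 170 CPM with vehicle and 169, 177 and 180 with the compound, a log2 fold change of 0.19 ± 0.070 (adjusted p = 0.228). ITGB1 differed by 0.092 ± 0.055, ITGA5 by −0.038 ± 0.071 and ITGB5 by 0.026 ± 0.065 on the log2 scale (adjusted p = 0.474, 0.838 and 0.884). Without vehicle library 3, ITGAV and ITGA4 passed as higher (adjusted p = 0.00434 and 0.0492). That fit called 11.4% of all tested genes, against 1.89% with all 6 libraries.

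Inside the cell, 2 of the 23 tested plaque and signalling members were called changed, both higher. FERMT2, which encodes kindlin-2, a co-activator of integrins that binds the beta tail, was 1.32-fold higher, and ZYX, which encodes the LIM protein zyxin that gathers on actin fibres under tension, was 1.27-fold higher. Over all 37 tested members this made 2 called (5.41%), against 1.89% of all tested genes called in either direction and 1.27% called higher, and 0 called lower in edgeR, in limma-voom or among the 34 members with an adjusted p in DESeq2, against 0.616% of all tested genes in edgeR. Counts of 2 and 0 called among 37 genes are too few to be set apart from the shares of all tested genes. The members were also chosen with earlier results of these data known. An unadjusted p below 0.05 was found for 6 members (16.2%), near the 14.4% of all tested genes, and all 6 were higher. In bulk RNA a change in every cell and a change in some of the cells cannot be told apart. The largest fold among the 29 tested members with a mean of at least 10 CPM was that of FERMT2.

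The promoter windows of the members that led the comparison are shown because any search for shared regulatory letters starts from them. Each is the 250 bases before the RefSeq start site (GRCh38.p14), 5′ to 3′ on the gene's strand, for FERMT2 (chr14:52951051-52951300, minus strand), ZYX (chr7:143381095-143381344, plus strand) and VCL, the vinculin gene (chr10:73997866-73998115, plus strand). Capitals mark matches to the motifs searched.
FERMT2: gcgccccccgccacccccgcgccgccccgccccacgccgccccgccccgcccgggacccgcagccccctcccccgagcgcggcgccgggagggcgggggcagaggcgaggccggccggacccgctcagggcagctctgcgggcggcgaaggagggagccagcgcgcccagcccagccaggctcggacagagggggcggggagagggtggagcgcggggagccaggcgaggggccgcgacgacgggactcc
ZYX: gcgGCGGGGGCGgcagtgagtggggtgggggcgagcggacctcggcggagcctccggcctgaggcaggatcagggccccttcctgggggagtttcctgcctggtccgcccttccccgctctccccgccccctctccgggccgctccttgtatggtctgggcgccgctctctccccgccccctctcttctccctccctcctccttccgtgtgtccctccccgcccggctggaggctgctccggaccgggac
VCL: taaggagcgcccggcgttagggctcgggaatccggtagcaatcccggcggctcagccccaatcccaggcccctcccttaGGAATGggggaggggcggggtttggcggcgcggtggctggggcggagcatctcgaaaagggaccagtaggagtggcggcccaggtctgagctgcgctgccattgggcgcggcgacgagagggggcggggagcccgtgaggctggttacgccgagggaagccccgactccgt
The windows are GC-rich, with 84.4%, 74.8% and 70.4% G or C. Both strands of the full windows, 250 bases before to 50 after the start, were searched for the CArG box of serum response factor, GGAATG (TEAD factors), TGANTCA (AP-1) and GCGNGGGCG (EGR factors). The ZYX window held 1 EGR match, which begins 247 bases before the start, and the VCL window 1 TEAD match, which begins 171 bases before it. FERMT2 held none of the 4 motifs.

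Windows were found for 29 of the 38 members, 65 windows in all. The CArG box was in 3 of the 65 (4.62%), 1 each of LPP, TES and TGFB1I1, against 1.29% of all 35116 windows. The EGR motif was in 13 (20.0%) against 9.43%, AP-1 in 7 (10.8%) against 7.71%, and TEAD in 9 (13.8%) against 14.0%. A match is a run of letters and not a bound site, and several windows belong to 1 gene.

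Talins and kindlins switch integrins on by binding the beta tail. FERMT2 (chromosome 14, 52857268 to 52952435) had 83.0, 80.4 and 89.4 CPM in the vehicle libraries and 114, 111 and 110 CPM in the compound libraries. Every compound library lay above every vehicle library, and the means of 84.3 ± 4.64 and 112 ± 2.19 CPM (SD, n = 3 each) gave a log2 fold change of 0.41 ± 0.061 (SE, edgeR adjusted p = 0.00345). The call was lost without vehicle library 1 (log2 fold change 0.40, adjusted p = 0.0581) and held without any other single library. The paralog FERMT1, kindlin-1, did not pass, with 42.4, 38.5 and 43.7 CPM in vehicle and 40.3, 40.2 and 39.8 CPM in compound libraries (−0.052 ± 0.070, adjusted p = 0.768). TLN1, the main talin gene, had 297, 241 and 300 CPM and then 314, 309 and 302 CPM. The groups of TLN1 did not overlap, vehicle library 2 was far below the rest, and the test gave 0.14 ± 0.077 (adjusted p = 0.428). TLN2 stayed between 6.05 and 8.02 CPM (adjusted p = 0.911).

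Actin linkers and LIM proteins carry the pull of actin to the plaque. ZYX (chromosome 7, 143381080 to 143391111) had 90.8, 96.3 and 83.2 CPM with vehicle and 118, 108 and 116 CPM with the compound. The groups did not overlap, with means of 90.1 ± 6.59 and 114 ± 4.82 CPM (SD, n = 3 each) and a log2 fold change of 0.34 ± 0.068 (SE, edgeR adjusted p = 0.0223). Leaving out vehicle library 1 or any 1 of the compound libraries ended the call (adjusted p from 0.0788 to 0.165, log2 fold change 0.32 to 0.38).

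VCL (chromosome 10, 73995193 to 74121363), which encodes the talin- and actin-binding vinculin, lay just outside the threshold. It had 387, 330 and 396 CPM with vehicle and 448, 450 and 461 CPM with the compound. The groups did not overlap, the log2 fold change was 0.29 ± 0.068 and the edgeR adjusted p was 0.0518. It passed as higher in DESeq2 (adjusted p = 0.00369) and in edgeR with no count filter (5.58e-04). It also passed without vehicle library 2 (log2 fold change 0.21, adjusted p = 0.0059) or vehicle library 3 (0.34, adjusted p = 0.00424). It did not pass in edgeR without vehicle library 1 (adjusted p = 0.188) or without any 1 of the compound libraries (0.202 to 0.269). Nor did it pass in limma-voom (adjusted p = 0.063) or in edgeR with library size alone (0.0877). TES, for the LIM protein testin, had 105, 102 and 106 CPM with vehicle and 118, 116 and 115 CPM with the compound, again without overlap, at 0.16 ± 0.055 (adjusted p = 0.207). Without vehicle library 3 TES passed (adjusted p = 0.046). Of all tested genes 2.60% were called without vehicle library 2 and 11.4% without vehicle library 3, against 1.89% with all 6 libraries.

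The remaining 5 members of that role did not pass and overlapped between groups. The scaffold gene PXN (paxillin) had 25.5 to 30.0 CPM, TNS3 (a tensin, which binds beta tails and actin) 41.5 to 55.0, LPP, a relative of zyxin, 41.5 to 59.4, TNS1 3.97 to 6.21 and TGFB1I1, the paxillin relative Hic-5, 2.88 to 3.98 CPM. Their log2 fold changes ran from −0.063 for PXN to 0.15 for TNS1.

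**Figure D2:**
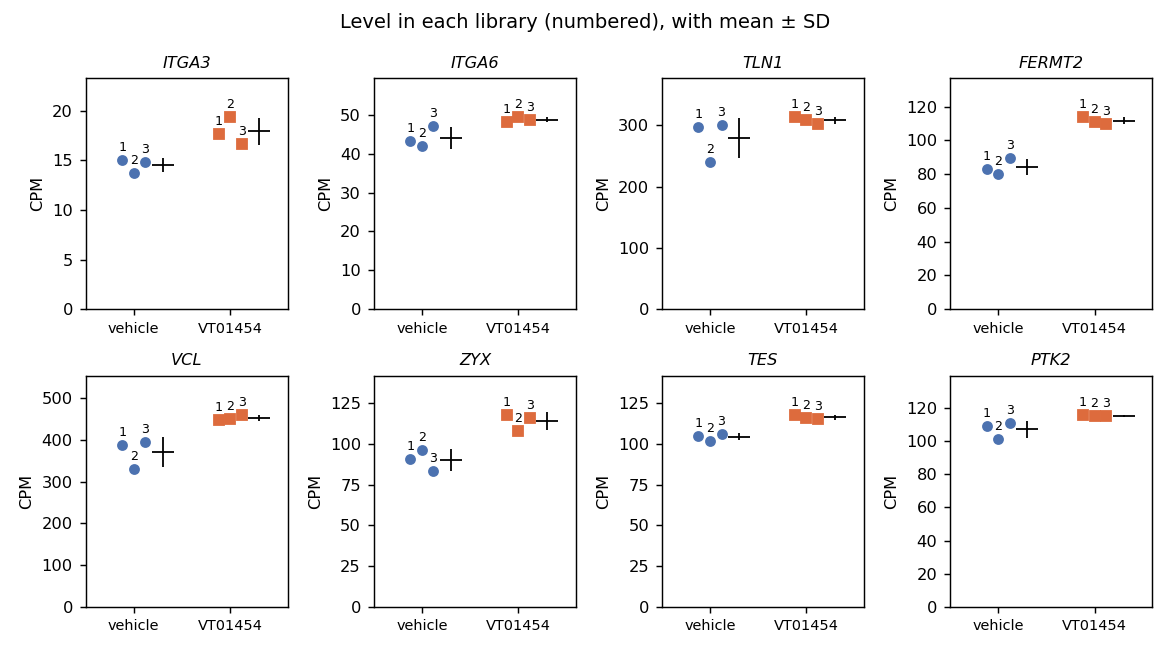
CPM in each numbered library (points) with the mean ± SD beside them (n = 3 per group) for the 8 members whose groups do not overlap. Each vertical axis starts at 0; FERMT2 rises from 80.4 to 89.4 CPM with vehicle to 110 to 114 CPM with the compound, and vehicle library 2 is the lowest point for ITGA3, ITGA6, TLN1, FERMT2, VCL, TES and PTK2.

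The complex of ILK, PINCH and parvin sits on kindlin and talin and links to actin. LIMS1, the PINCH-1 gene, had 124 to 146 CPM, PARVA 68.3 to 77.4 and PARVB 37.1 to 44.0, and none of the 3 passed (log2 fold changes 0.097 ± 0.066, 0.032 ± 0.066 and −0.13 ± 0.070, adjusted p = 0.532, 0.852 and 0.443). ILK itself could not be read: it had at most 4 counts in any library and was not tested. In the annotation 78.5% of its exonic bases also lie in exons of other genes, mainly TAF10, a transcription factor subunit gene on the opposite strand that had 32 to 98 counts. Whether the counting dropped reads shared by ILK and TAF10 was not tested, and the strand setting is not given in the sources used here, so the near absence of ILK counts gives no level for the transcript.

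None of the 8 signalling members passed in edgeR, DESeq2 or limma-voom, and none had an unadjusted p below 0.05 in edgeR. Of all tested genes 1.89% passed and 14.4% had such an unadjusted p in edgeR, and 8 genes are too few to be set apart from those shares. PTK2, the gene of the focal adhesion kinase FAK, had 109, 101 and 111 CPM with vehicle and 116, 115 and 115 CPM with the compound, with no overlap and a log2 fold change of 0.11 ± 0.058 (adjusted p = 0.400). SRC, its partner kinase, stood between 67.3 and 76.9 CPM at −0.015 ± 0.066. The adaptor genes BCAR1 (p130Cas), CRKL and CRK were at −0.065 ± 0.068, −0.045 ± 0.062 and 0.21 ± 0.11, and CRKL was the most abundant of them at 176 to 202 CPM. GIT1 and ARHGEF7, whose products form the GIT and beta-PIX complex that guides RAC activity, were at 0.072 ± 0.064 and 0.085 ± 0.070. NEDD9, a relative of BCAR1, had 2.26 to 3.64 CPM (0.10 ± 0.22).

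**Figure D3:**
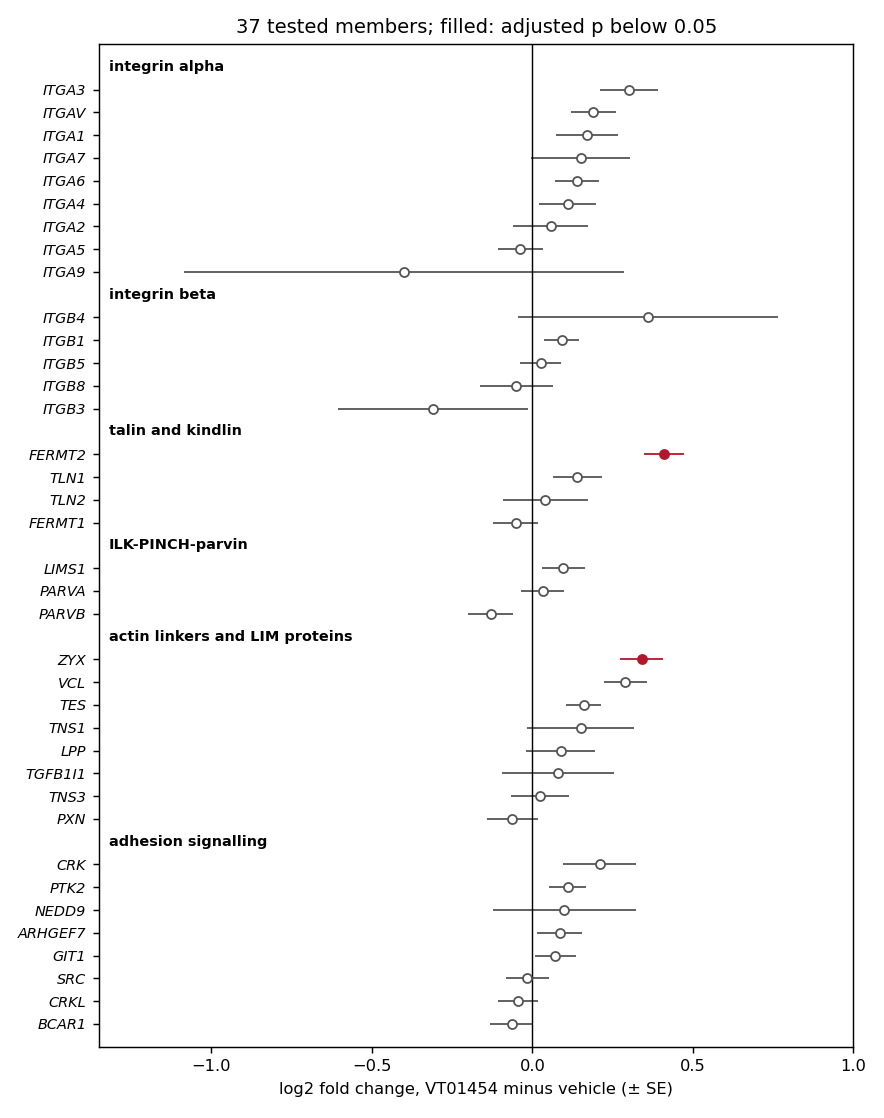
Log2 fold change of VT01454 minus vehicle (horizontal axis, ± SE) for the 37 tested members by role. FERMT2 at 0.41 and ZYX at 0.34 are the filled points with an adjusted p below 0.05, and the widest bars belong to ITGA9, ITGB4 and ITGB3, which have few counts.

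Across the set the values leaned upward, and vehicle library 2 moved with that lean. The log2 fold change was above 0 in 27 of 37 tested members (73.0%), against 48.4% of all tested genes, and its median was 0.088 against −0.0073. In 8 members (21.6%) every compound library exceeded every vehicle library, against 11.3% of all tested genes, and in 0 members the reverse held, against 9.84%. Vehicle library 2 was the lowest of the 6 libraries in 21 of 37 members (56.8%), against 27.8% of all tested genes. Relative to the mean of the other 2 vehicle libraries its median over members was −0.114 (log2), with 29 of 37 below 0. Over all tested genes its median was −0.003, with 50.5% below 0. Without vehicle library 2 the median over members was 0.038, with 23 of 37 above 0. Over all tested genes in that fit the median was 0.002, with 50.7% above 0. Without vehicle library 3 the median over members was 0.137. It was 0.043 without compound library 2.

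**Figure D4:**
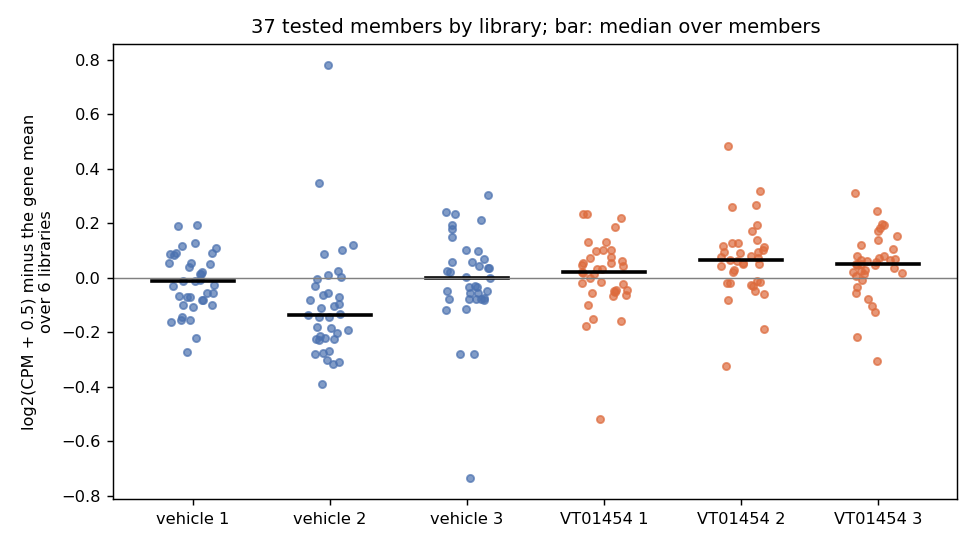
Log2(CPM + 0.5) of each of the 37 tested members minus its mean over the 6 libraries (vertical axis), by library, with the median over members as a bar. The median is −0.136 in vehicle library 2, −0.013 and −0.001 in vehicle libraries 1 and 3, and 0.020, 0.064 and 0.051 in compound libraries 1, 2 and 3.

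The count of called members also turned on single libraries. It was 0 without vehicle library 1, 1 (FERMT2) without any single compound library, 3 without vehicle library 2 (FERMT2, VCL and ZYX) and 6 without vehicle library 3 (these 3 with ITGA4, ITGAV and TES), all of them higher. The share of all tested genes called in the same fits was 0.584%, 0.676% to 0.854%, 2.60% and 11.4%.

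**Figure D5:**
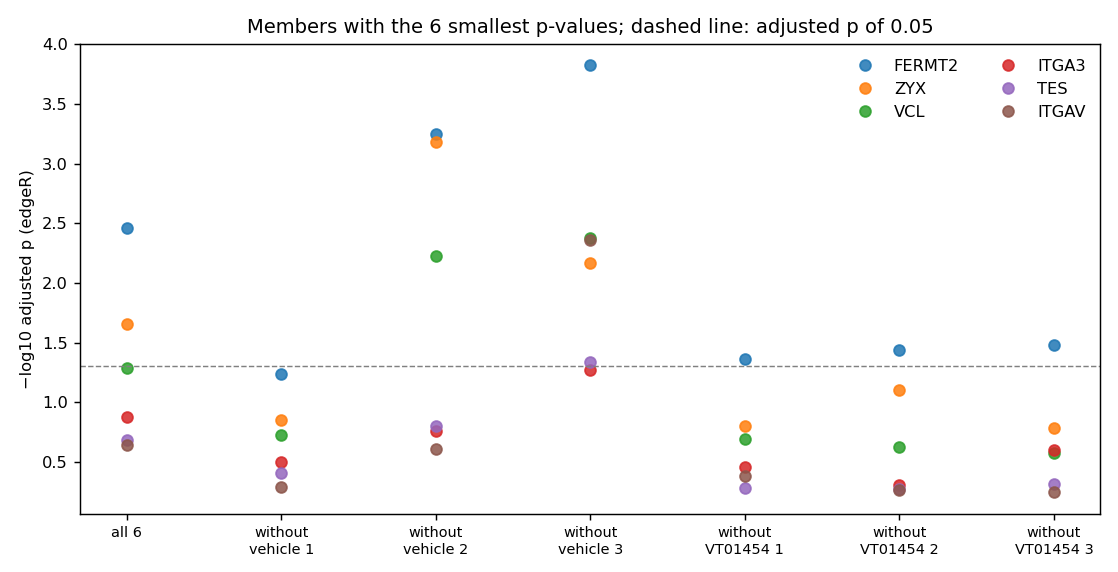
Adjusted p (edgeR, as −log10, vertical axis) for the 6 members with the smallest p, using all 6 libraries and leaving out each in turn (horizontal axis). FERMT2 lies above the dashed line of 0.05 except without vehicle library 1, and ZYX lies above it with all libraries and without vehicle library 2 or 3.

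Among 50 other adhesion plaque genes, 47 were tested and 2 were called in edgeR (4.26%), both higher, against 1.89% of all tested genes. The list was chosen with earlier results of these data known, so its share cannot be weighed against that of all tested genes. An unadjusted p below 0.05 was found for 9 (19.1%, against 14.4% of all tested genes), and the median log2 fold change was 0.050. PDLIM7, which encodes a PDZ and LIM protein of actin fibres, had 39.3, 37.5 and 35.2 CPM with vehicle and 48.9, 49.2 and 47.0 CPM with the compound (0.37 ± 0.068, adjusted p = 0.0132). FHL2, for a LIM-only protein found at adhesions and in the nucleus, had 37.2, 41.6 and 42.6 CPM and then 52.6, 50.1 and 50.3 CPM (0.33 ± 0.071, adjusted p = 0.0318). Neither gene's groups overlapped. Leaving out vehicle library 1, or any 1 of the compound libraries, ended both calls, with the adjusted p reaching 0.116 for PDLIM7 (log2 fold change 0.37 to 0.41 in these fits) and 0.195 for FHL2 (0.28 to 0.35). The list had 8 called genes without vehicle library 3, where 11.4% of all tested genes were called, and 3 without vehicle library 2, where 2.60% were. It had 0 when vehicle library 1 or any 1 of the compound libraries was left out. In those fits 0.584% to 0.854% of all tested genes were called, and a count of 0 among 47 genes cannot be set apart from that.

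Of 12 other integrin subunits 5 were abundant enough to test, and none passed in edgeR or limma-voom, against 1.89% of all tested genes in edgeR. An unadjusted p below 0.05 in edgeR was found for 1 (20.0%), against 14.4% of all tested genes. With 5 genes these counts cannot be set apart from those shares. DESeq2 gave an adjusted p to 2 of the 5, not to ITGA10, ITGAD or ITGB2, and neither of the 2 passed. The gene with the low unadjusted p, ITGA10, a collagen receptor subunit, had 1.70, 2.56 and 1.51 CPM with vehicle and 1.05, 0.281 and 0.450 CPM with the compound. Its groups did not overlap at these low counts, the log2 fold change was −1.64 ± 0.40 and the adjusted p was 0.0607. ITGA10 passed as lower without vehicle library 3 (−1.79, adjusted p = 0.0184), without compound library 1 (−2.36, 0.0157) and with no count filter. Those fits called 11.4%, 0.854% and 2.29% of all tested genes. ITGA10 did not pass in edgeR when vehicle library 1 or 2, or compound library 2 or 3, was left out (adjusted p from 0.0902 to 0.269). ITGAD, a leukocyte subunit gene, stood at −0.48 ± 0.33 (adjusted p = 0.540).

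Of 29 integrin ligand genes 28 were tested and 2 were called in edgeR (7.14%), both lower. Of all tested genes 1.89% were called and 0.616% called lower. This list was chosen with earlier results of these data known, so its share cannot be weighed against that of all tested genes. An unadjusted p below 0.05 was found for 4 (14.3%, against 14.4% of all tested genes), and the median log2 fold change was 0.088. The genes that fell, CCN1 and CCN2, encode matricellular proteins that bind integrins and are classical YAP/TAZ targets. CCN2 had 160, 173 and 163 CPM with vehicle and 75.7, 74.6 and 74.9 CPM with the compound, and CCN1 had 199, 216 and 196 and then 139, 136 and 142 CPM. Both calls held without any single library (adjusted p at most 1.28e-04 for CCN2 and 0.0071 for CCN1), and the list had 7 called genes without vehicle library 3, in the fit that called 11.4% of all tested genes.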

How the data were processed

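The authors deposited a table of raw counts for each sample, with whole reads per Ensembl gene and no scaling. HISAT2 2.2.1, HTSeq 0.9.1 and the build hg38 are named per the submitters' processing notes; for annotation release and strand setting, the value is not given in the sources used here. Symbols matched 60357 of 60676 IDs. Coordinates (1-based), exonic lengths and exon overlaps came from GENCODE release 29, on the same build, which held 58503 of the IDs.

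Counts were tested with edgeR 4.0.16 in R 4.3.3 (filterByExpr, TMM, robust quasi-likelihood F-test, two-sided), with Benjamini-Hochberg adjustment over all 15577 tested genes and a call below 0.05. The standard error was taken as |log2 fold change| over the square root of F. CPM per kilobase divides TMM-scaled CPM by the length of all exons joined. Alternatives were DESeq2 1.42.0, its size factors, library size alone, other count filters, a block for replicate number, limma 3.58.1 with voom weights, each library left out and an adjusted p below 0.01.

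The members and lists were chosen with earlier results of these data known. All 38 members are named; of 3 further lists, the called genes (at most 4) or, where none was called, the 2 with the smallest p.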

Additional observations from a re-analysis of the deposited data

How the results depend on the processing

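For 43 named genes tested, 594 values came from at most 14 alternatives each (values without a DESeq2 adjusted p are left out). Direction and side of the threshold were kept in 550, 12 became called, 16 lost the call and 16 changed sign. Most of these genes were uncalled, and for them the alternative of an adjusted p below 0.01, on the same fit, could give no other outcome. The 550 therefore do not measure how stable the calls were. All 16 lost calls fell on 4 genes, 2 of them members. All sign changes were in uncalled members. When 1 library was left out, the log2 fold change ran from −0.054 to 0.22 for ITGA2, −0.98 to 0.41 for ITGA9, −0.030 to 0.65 for ITGB4, −0.019 to 0.062 for ITGB5, −0.14 to 0.071 for ITGB8 and −0.037 to 0.16 for TLN2. It ran from −0.023 to 0.061 for PARVA, −0.060 to 0.15 for TGFB1I1, −0.071 to 0.13 for TNS3, −0.028 to 0.23 for LPP, −0.062 to 0.039 for SRC and −0.049 to 0.36 for NEDD9. ITGA9 also turned to 0.020 in limma-voom. The cause was not tested.

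All genes called numbered 294 (198 higher, 96 lower), 713 (508 and 205) with no count filter, 125 (94 and 31) at an adjusted p below 0.01, and 298 were higher in DESeq2. Leaving out 1 library gave 93 to 1806 calls, 73 to 1170 higher and 20 to 636 lower, with 0 to 6 members higher and 0 lower. It gave 0 to 8 other plaque genes, 0 or 1 other integrin subunits and 2 to 7 ligand genes, and left the expressed pairs at 9. At an adjusted p below 0.01, 1 member and 0 other plaque genes were called. With no count filter 4 other plaque genes (PDLIM7, FHL2, FBLIM1 and CASS4, the last 2 named after their values were seen) and 1 other integrin subunit, ITGA10, were called. A floor of 5 CPM per kilobase left 3 expressed pairs; the length alternative was chosen after seeing the data. Whether replicate numbers mark matched samples is not known. Same-numbered deviations correlated at −0.07, 0.0276 and −0.0139, and not every library correlated best with its own number. With 3 libraries per group these values cannot settle the matter. With the replicate block 3 members (VCL added, adjusted p = 0.0262), 1 other integrin subunit (ITGA10) and 3 ligand genes (THBS1 added, named after its value was seen) were called. The share of all tested genes called was 2.18% with the block, against 1.89% in the main fit. Members with few counts (ITGA9, ITGB3, ITGB4) allow no statement on changes of the size seen in FERMT2. Other uncalled members were also imprecise, among them NEDD9 (0.10 ± 0.22), TNS1 (0.15 ± 0.17), TGFB1I1 (0.079 ± 0.17) and ITGA7 (0.15 ± 0.15, log2 fold change ± SE). A change of that size cannot be read as absent in them.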
